A study of Mus musculus with 6 samples.

Results

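The genes described here encode the CD8 co-receptor and the first signaling steps of the T cell receptor. They are Cd8a, Cd8b1, Cd3d, Cd3e, Cd3g, Cd247, Lck, Zap70 and Lat, 9 of the 44678 genes in the deposited tables. They were taken by symbol, with no measured value in the rule, but the list was chosen with earlier results of these data known. The study sequenced transcriptomes to ask whether miR-144 and miR-451 act on dendritic cells (DCs) through gene expression. RNA-seq libraries of 3 wild type (WT) and 3 knockout (KO) samples were compared, and the sample records describe all of them as CD8a+ leukocytes of the spleen that received no treatment. Both groups are on the C57BL/6J background and, according to the methods, the mice of the study were 8 to 12 weeks old. The KO mice carry a germline deletion of a short segment that holds the precursors of both miRNAs, so every cell type of the animal lacks them. The WT mice were supplied by a university animal center, and whether they were littermates of the KO mice is not given. The methods describe magnetic sorts of CD11c+ DCs, of CD4+ T cells and, with beads against Ly-2 (another name of CD8a), of CD8+ T cells, and do not state which cells were sequenced. Nothing in the records says whether a library came from 1 animal or from pooled animals, so the p-values measure only the spread between these samples.

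On a cytotoxic T cell, the receptor chains recognise a peptide held by a class I molecule of the major histocompatibility complex, and CD8 binds the same class I molecule. The receptor chains have no signaling tail of their own and rely on the CD3 chains and the zeta chain, whose tails are phosphorylated by LCK, a kinase that travels with CD8. ZAP70 then docks on the phosphorylated tails and phosphorylates LAT, on which the downstream signaling complex assembles. CD8 occurs on most cytotoxic T cells as a heterodimer of alpha and beta chains, whereas a subset of splenic DCs carries the alpha chain as a homodimer.

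The 3 mature miRNAs of the deleted segment are shown because their seeds (bases 2 to 8, in capitals) were searched for in the 3′-UTRs of the 9 genes. They are encoded on the plus strand of mouse chromosome 11 (RefSeq sequences, GRCm38), and their seeds differ from each other.
mmu-miR-144-3p: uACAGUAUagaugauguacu
mmu-miR-144-5p: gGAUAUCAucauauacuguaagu
mmu-miR-451a: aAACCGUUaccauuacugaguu
Letters complementary to the whole seed of miR-144-3p (ATACTGT) occurred in Cd247 and in none of the other 8 genes. Letters for the seeds of miR-144-5p (TGATATC) and miR-451a (AACGGTT) occurred in none of the 9. Both matches in Cd247, the gene of the zeta chain, lie in the 3′-UTR of its transcript Cd247-209 on the plus strand, with the match in capitals.
Cd247, chr1:165870158-165870164: gcatggttctgcATACTGTgctgcata
Cd247, chr1:165871086-165871092: ataacatggtaaATACTGTtcatatcc
The first match lies in exons of 4 of the 6 coding Cd247 transcripts with a 3′-UTR, and the second lies in exons of 3. The principal transcript, Cd247-201, holds neither. Both positions are also exonic in Pou2f1, which is transcribed from the opposite strand. Among 11550 tested genes with an annotated 3′-UTR, 13.4% held letters for miR-144-3p, 5.58% held those for miR-144-5p and 1.91% held those for miR-451a. A match of this kind describes the sequence and was not tested for function.

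The libraries held between 8143971 and 8876570 counts, at which 3 counts correspond to 0.338 to 0.368 CPM (counts scaled to the library's size), a floor that covers counting error only. Both precursors, Mir144 and Mir451a, were listed at 0 counts in all 6 libraries, WT included, so the counts gave no check of the genotype labels. Transcripts of alpha-beta T cells were abundant in every library, and the summed CPM of 8 of their markers (led by Tcf7 and Trbc2) was 2518, 3250.3 and 2846 in WT1, WT2 and WT3 and 2337, 1919 and 2935 in KO1, KO2 and KO3. Of these 8 markers, 6 also belong to the list of receptor pathway genes described further on. B cell transcripts were abundant too, although B cells do not carry CD8, and their 8 markers (led by Ighm and Cd79a) summed to 5204, 3261 and 2991 CPM in WT1, WT2 and WT3 and to 5271, 5534 and 2855 CPM in KO1, KO2 and KO3. Thus WT1, KO1 and KO2 had more B cell RNA than WT2, WT3 and KO3, in both genotypes. The 7 monocyte and macrophage markers (led by Lyz2 and Ly6c2) showed the same split, from 1793 to 2033 CPM in WT1, KO1 and KO2 and from 1102 to 1199 CPM in WT2, WT3 and KO3. Ly6c2, which CD8 T cells also express, did not follow this split, with 488, 452 and 423 CPM in WT1, WT2 and WT3 and 320.0, 295 and 542 CPM in KO1, KO2 and KO3. The 10 markers of CD8a+ DCs (conventional DC type 1, led by Irf8 and Cd24a) summed to 810 to 915 CPM in WT and 927 to 1083 CPM in KO, without overlap. Irf8 and Cd24a, which B cells also express, made up 47.2% to 63.0% of that sum. The other 8 markers overlapped, at 363 to 437 CPM in WT and 401 to 489 CPM in KO. Among these 8, Itgae was at 86.1, 127 and 152 CPM in WT and 112, 77.8 and 129 CPM in KO. Itgae was lowest in KO2 and next in WT1, and the overlap was not examined without it. No marker of these 4 lists was at 0 and none passed the adjusted test. In a bulk sample, fewer cells of a type and less RNA per cell cannot be told apart.

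Cd8a and Cd8b1, the chains of the co-receptor, were the most variable of the 9 genes. Cd8a (ENSMUSG00000053977) lies on the plus strand of chr6:71373427-71379173, and Cd8b1 (ENSMUSG00000053044) lies on the same strand at chr6:71322788-71337494, with 35932 bp between them. The level of Cd8a was 694, 1041 and 977 CPM in WT1, WT2 and WT3 and 688, 476 and 1030.2 CPM in KO1, KO2 and KO3. KO2 was the lowest library, KO1 was next to WT1, and KO3 lay among the highest, so the genotypes overlapped. The means were 904 ± 185 CPM in WT and 732 ± 279 CPM in KO (SD, n = 3). The fitted log2 fold change of Cd8a was -0.31 with a standard error (SE) of 0.27, and its adjusted p of 0.870 in edgeR's quasi-likelihood test did not pass. The level of Cd8b1 was 546, 756 and 703 CPM in the WT libraries and 441, 305 and 688 CPM in the KO libraries, in the same order. KO1 and KO2 lay below all WT libraries, and KO3 lay inside the WT range. Cd8b1 averaged 668 ± 109 CPM in WT and 478 ± 194 CPM in KO (SD, n = 3). Its log2 fold change of -0.48 (SE 0.27) was the largest of the 9 in size, its 95% interval ran from -1.11 to 0.14, and its adjusted p in edgeR was 0.816.

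**Figure D1:**
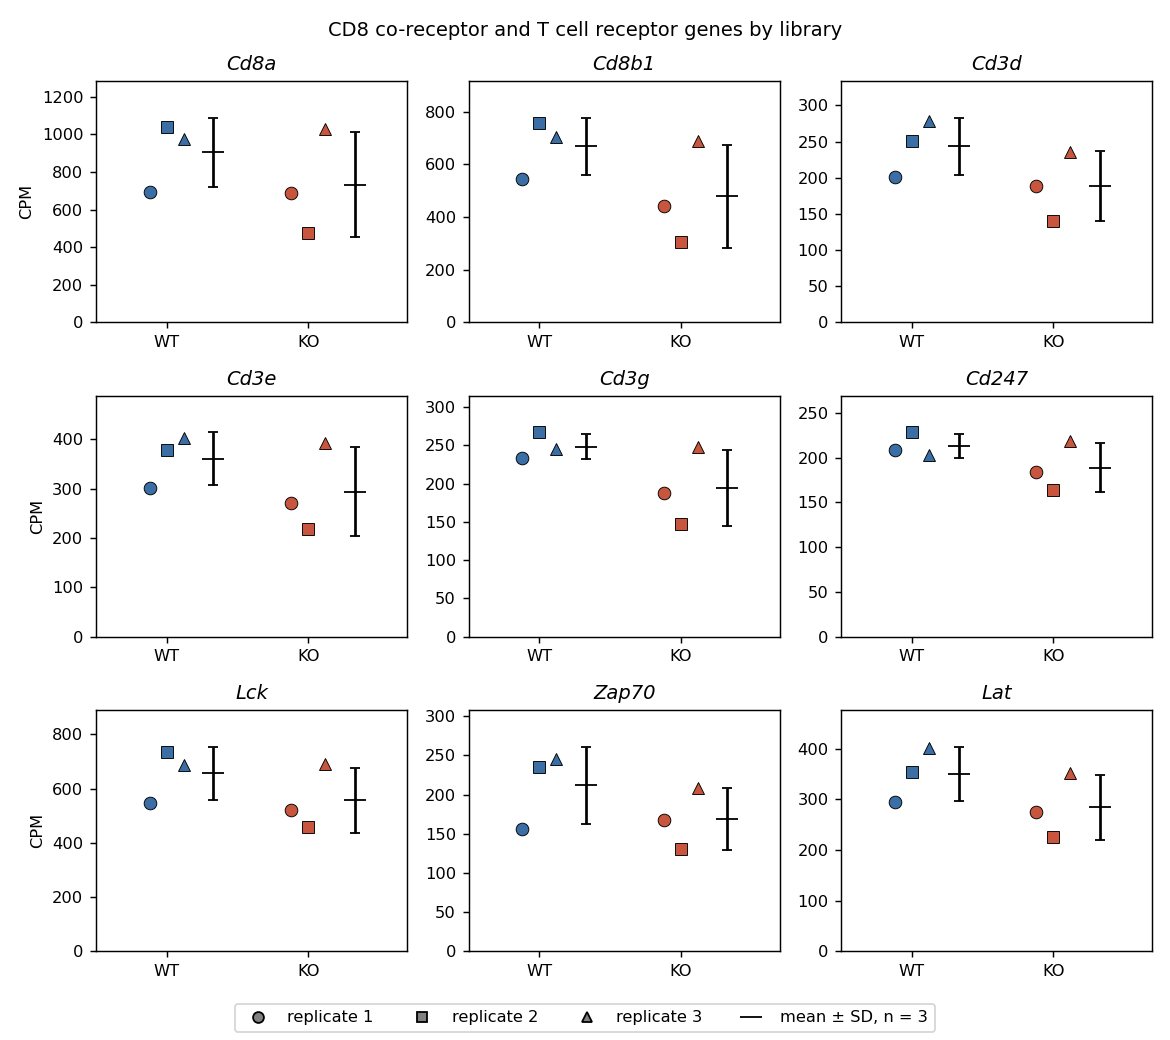
Levels of the 9 genes in CPM (vertical axes, each from 0) by genotype, 1 point per library, with the mean and SD of 3 libraries beside the points. KO2 is the lowest point in all 9 panels, while KO3 lies inside the WT range in each.

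The CD3 genes lie in a cluster on chromosome 9. Cd3g (ENSMUSG00000002033, minus strand, chr9:44969572-44980431) and Cd3d (ENSMUSG00000032094, plus strand, chr9:44981786-44987339) are transcribed away from each other across a gap of 1354 bp, and Cd3e (ENSMUSG00000032093, minus strand, chr9:44998740-45009627) follows after 11400 bp. CD3 epsilon pairs with both of the other CD3 chains. The level of Cd3e was 301, 378 and 403 CPM in WT1, WT2 and WT3 and 271, 218 and 393 CPM in KO1, KO2 and KO3. The level of Cd3d, which encodes the delta chain, was 201, 251 and 279 CPM in the WT libraries and 189, 139.9 and 236 CPM in the KO libraries. For the gamma chain, Cd3g stood at 234, 267 and 245 CPM in WT and at 188, 148 and 247 CPM in KO. In each of the 3 genes KO1 and KO2 were the lowest libraries and KO3 lay within the WT range. The means were lower in KO for all 3, with 360.4 ± 53.3 against 294 ± 89.6 CPM for Cd3e, 243 ± 39.5 against 188 ± 48.1 CPM for Cd3d and 248 ± 16.9 against 194 ± 50.1 CPM for Cd3g (WT against KO, SD, n = 3). The log2 fold changes were -0.30 (SE 0.21) for Cd3e, -0.37 (SE 0.19) for Cd3d and -0.35 (SE 0.17) for Cd3g, and none passed edgeR's adjusted test. Cd3g was tight in WT and wide in KO, and had the smallest unadjusted p of the 9 genes in the edgeR fit, 0.0736 (adjusted p 0.816).

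Cd247 (ENSMUSG00000005763, plus strand, chr1:165788681-165877277), whose product is the zeta chain with most of the signaling motifs of the receptor, varied least. Its level was 208, 228 and 203 CPM in WT1, WT2 and WT3 and 184, 164 and 218 CPM in KO1, KO2 and KO3. KO1 and KO2 were again below all WT libraries. Cd247 averaged 213 ± 13.4 CPM in WT and 189 ± 27.2 CPM in KO (SD, n = 3), a log2 fold change of -0.17 (SE 0.12) with an adjusted p of 0.828 in edgeR. The joined exons of Cd247 overlap those of Pou2f1, on the opposite strand, over 3007 bp or 56.4% of their length. Pou2f1 had 882, 955 and 749 counts in the WT libraries and 1022, 907 and 888 counts in the KO libraries. Whether the counting used strand is not given, so reads of the overlap cannot be assigned and the level of Cd247 is uncertain to that extent.

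Lck (ENSMUSG00000000409, minus strand, chr4:129548344-129573641), the kinase bound to the co-receptor, was at 547, 734 and 687 CPM in WT1, WT2 and WT3 and at 523, 457 and 689.9 CPM in KO1, KO2 and KO3. Zap70 (ENSMUSG00000026117, plus strand, chr1:36761798-36782818), the kinase recruited to the phosphorylated receptor, was at 156, 235 and 245 CPM in WT and at 168, 130.2 and 208 CPM in KO. Lat (ENSMUSG00000030742, minus strand, chr7:126363824-126369570), the scaffold phosphorylated by ZAP70, was at 296, 354 and 402 CPM in WT and at 275, 226 and 353 CPM in KO. Lck and Lat followed the order of the CD3 genes at the lower end, whereas for Zap70 WT1 lay below KO1. The means were 656 ± 97.5 and 556 ± 120.1 CPM for Lck, 212 ± 48.9 and 169 ± 39.1 CPM for Zap70 and 351 ± 53.1 and 284 ± 64.2 CPM for Lat (WT and KO, SD, n = 3). The log2 fold changes were -0.24 (SE 0.17) for Lck, -0.33 (SE 0.21) for Zap70 and -0.30 (SE 0.18) for Lat. The adjusted p in edgeR was 0.841, 0.819 and 0.817, respectively.

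Across the 9 genes, then, all fitted fold changes were below 0, and none passed. Of the 13024 genes tested by edgeR, 0.0307% passed the adjusted threshold of 0.05, and 0 of the 9 did. At an unadjusted p under 0.05, 2.11% of all genes were lower in KO and 4.14% were higher by edgeR, against 0 of the 9. By edgeR without a filter on low counts 3 of the 9 (Cd8b1, Cd3d and Cd3g) were lower, against 2.11% of 20913 genes. By DESeq2, over the same 20913 genes, the shares were 1.12% lower and 2.44% higher, against 2 of the 9 lower, and by limma voom they were 2.2% and 3.63%, against 0 of the 9. A fold change below 0 was found for 49.4% of all genes and for 9 of 9 here, with a median of -0.31 against 0.0030 over all genes. Every KO library lay below every WT library for 5.64% of all genes and above for 5.83%, against 0 of the 9 in either direction. The 9 genes are not independent of each other, since T cells express all of them, and they were listed with earlier results of these data known. Their median biological coefficient of variation was 0.183 against 0.150 over all tested genes, and ranged from 0.124 for Cd247 to 0.246 for Cd8a. Counting error was small beside it, between 1.59% and 3.04% at the lowest count of each gene.

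The size of the differences depended on single libraries, while 0 of 9 genes passed the adjusted test whichever library was left out. KO2 was the lowest of the 6 libraries for 9 of 9 genes (22.6% of all genes), and KO1 and KO2 were both below all WT libraries for 8 of 9 (14.7% of all genes). KO3 lay within the WT range for 9 of 9 and above the WT mean for 6, and the share of all genes was not counted for either. Leaving out KO3 moved the median log2 fold change to -0.58 and put 9 of 9 genes under an unadjusted p of 0.05 in edgeR, against 5.68% of all genes, while the adjusted p ranged from 0.116 to 0.307, so that 0 of 9 passed against 0.707% of all genes. Leaving out KO2 moved the median to -0.16, and 0 of 9 genes were then lower at an unadjusted p under 0.05, against 1.1% of all genes. Leaving out WT1 moved it to -0.41, with Cd3d and Zap70 lower at an unadjusted p under 0.05 in edgeR, 2 of 9 against 3.38% of all genes. For 8 of the 9 genes the 3 lowest libraries were WT1, KO1 and KO2, those with the higher B cell and monocyte sums given above. The share of all genes with this split was not counted. With the mean log2 CPM of 25 B cell, monocyte and DC markers as a covariate, the median was -0.052 and Cd8a, Cd3e and Lck turned to 0.078, 0.0014 and 0.015, all with adjusted p in edgeR of 0.970 or more. The covariate came from the same libraries, at 6.95, 6.53 and 6.58 in WT and 7.17, 7.23 and 6.58 in KO. This fit is therefore no test of the part of those cell types in the result, which was not tested.

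**Figure D2:**
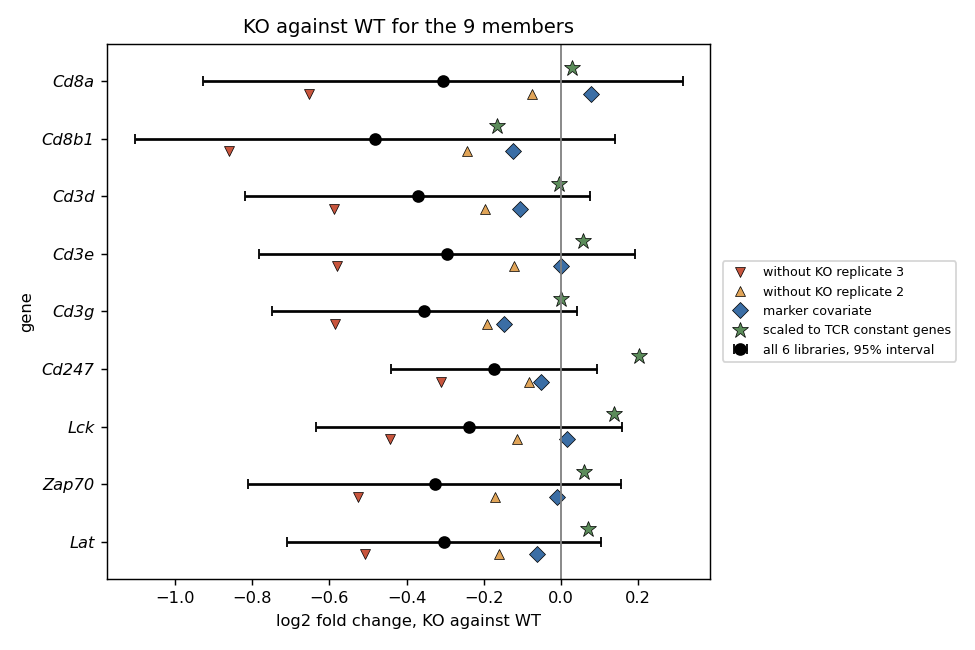
Log2 fold change of KO against WT (horizontal axis) for each of the 9 genes (vertical axis). Black points with bars are the fit to all 6 libraries with its 95% interval, which includes 0 for every gene, and the other symbols are fits without KO3, without KO2 and with the marker covariate, and values scaled to the receptor constant genes.

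The 9 genes varied together over the libraries. Each gene's log2 CPM was centred on its own mean, and the centred values were averaged, which gave -0.07, 0.30 and 0.29 for WT1, WT2 and WT3 and -0.19, -0.55 and 0.23 for KO1, KO2 and KO3. Cd3e was nearest to the mean of the other 8, with a root mean square difference of 0.051 on the log2 scale. Cd247 (0.197) and Cd8b1 (0.179) were farthest from it, Cd247 with a flatter and Cd8b1 with a steeper course. Among 9276 other genes with a mean of at least 10 CPM, the median difference from the profile was 0.315. The 5 nearest were Trac at 0.038, which encodes the constant part of the receptor alpha chain, Ccr9 at 0.051, a chemokine receptor, Cd6 at 0.053, a surface partner of the receptor, Fam78a at 0.054 and Thy1 at 0.055, a surface protein of T cells. Trac was at 294, 399 and 364 CPM in the WT libraries and at 271, 207 and 364 CPM in the KO libraries, lowest in KO2 as the 9 genes were. Nearest to the mirror image, highest in KO2, were Zfp318 at 0.050, Myo7a at 0.061, Usp6nl at 0.062, Cd36 at 0.067 and Dennd5a at 0.070. Zfp318, which is needed for IgD on B cells, was at 146, 109 and 106 CPM in WT and at 149.7, 183 and 117 CPM in KO.

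**Figure D3:**
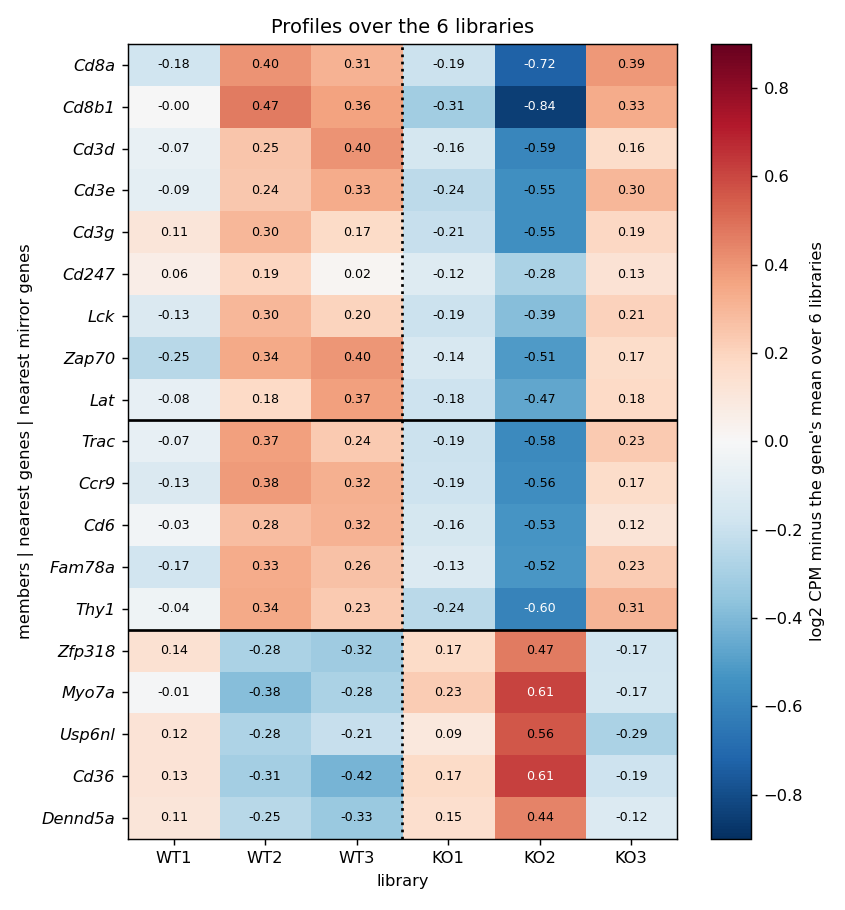
Log2 CPM minus the gene's own mean over the 6 libraries (color and printed value) for the 9 genes, the 5 nearest genes and the 5 nearest to the mirror image (vertical axis) in each library (horizontal axis). KO2 is the lowest column for the upper 2 blocks and the highest for the lowest block.

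Ratios within a library need no scaling for library size, and 4 were compared. The ratio of Cd8b1 to Cd8a counts was 0.786, 0.726 and 0.719 in WT1, WT2 and WT3 and 0.641, 0.639 and 0.668 in KO1, KO2 and KO3. All KO libraries lay below all WT libraries, KO3 included, and the spread within each genotype was small. The means were 0.744 ± 0.0371 in WT and 0.649 ± 0.0162 in KO (SD, n = 3), a difference of -0.19 on the log2 scale, with a counting error of 0.023 to 0.037 per library. The exact two-sided permutation p was 0.1, the smallest that 3 against 3 allows, and 0.4 after adjustment over the 4 ratios. Leaving out any 1 library left the log2 difference between -0.22 and -0.15. Of the 10 markers of CD8a+ DCs, cells that carry Cd8a and not Cd8b1, 9 had a log2 fold change above 0 (median 0.40) and Itgae was at -0.19. Xcr1, Flt3, Irf8 and Zbtb46 were higher at an unadjusted p under 0.05 in edgeR, 4 of the 10 against 4.14% of all genes, and 0 passed after adjustment. Other cell types were above 0 as well, with 6 of 7 monocyte and macrophage markers (median 0.41), 8 of 8 B cell markers (median 0.28) and 5 of 5 neutrophil markers (median 0.70). The sums of these lists were higher in WT1, KO1 and KO2 than in WT2, WT3 and KO3. Fewer were above 0 for plasmacytoid DCs (2 of 5, median -0.016), gamma-delta T cells (1 of 4 tested, median -0.16) and alpha-beta T cells (1 of 8, median -0.30). Of all genes, 49.4% were below 0. Flt3, at 31.8 to 32.5 CPM in WT and 44.6, 39.3 and 51.1 CPM in KO1, KO2 and KO3, and Zbtb46, at 9.36 to 10.2 CPM in WT and 11.1, 14.2 and 15.1 CPM in KO, were higher in KO without overlap, as were 5.83% of all genes. For Xcr1 (15.4 to 17.7 CPM in WT and 25.4, 16.5 and 33.7 CPM in KO) and Clec9a (16.8 to 22.5 CPM in WT and 24.2, 17.2 and 38.9 CPM in KO), KO2 lay inside the WT range. The part of these cells in the ratio was not tested.

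The other ratios overlapped between genotypes. Cd8a to Cd3e, the co-receptor against a receptor chain, was 2.31, 2.75 and 2.43 in WT and 2.54, 2.19 and 2.62 in KO, a log2 difference of -0.03 (exact permutation p 0.8). Cd247 to Cd3e was 0.692, 0.603 and 0.503 in WT and 0.681, 0.753 and 0.555 in KO, a log2 difference of 0.15 (exact permutation p 0.5). Zap70 to Lck, the kinases of the first step, was 0.285, 0.320 and 0.356 in WT and 0.321, 0.285 and 0.302 in KO, a log2 difference of -0.08 (exact permutation p 0.6). The adjusted p was 0.8 for each of these 3 ratios, and the spread between libraries exceeded the difference in each.

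**Figure D4:**
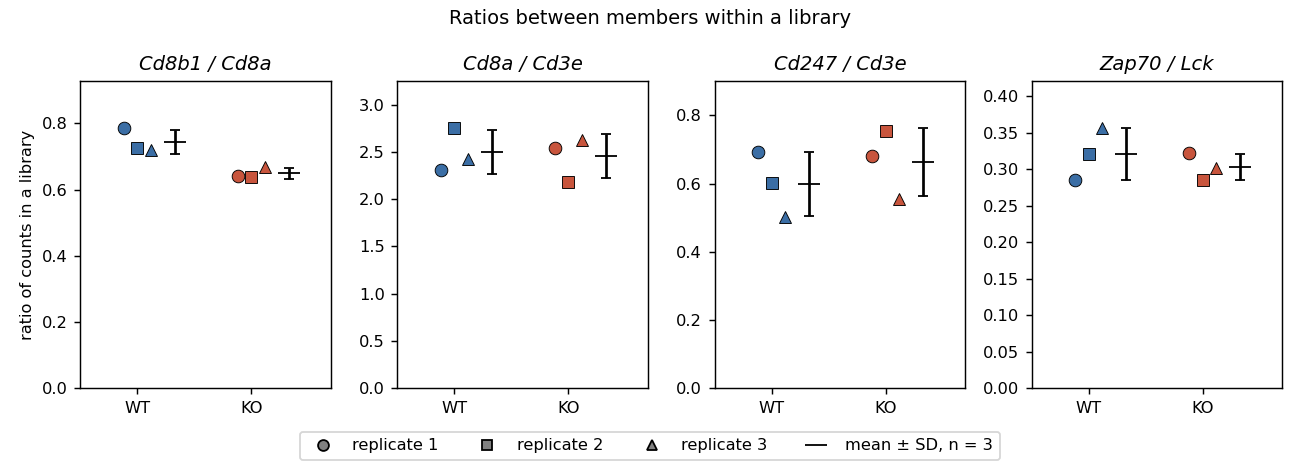
Ratio of counts within a library (vertical axes, each from 0) for the 4 gene pairs by genotype, 1 point per library, with the mean and SD of 3 libraries. The Cd8b1 to Cd8a ratio is at 0.719 or more in WT and at 0.668 or less in KO, and the other ratios overlap.

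The 9 genes were also scaled to the summed counts of the receptor constant genes Trac, Trbc1 and Trbc2, a choice made after the data were seen. These constant genes summed to 962, 1186 and 1118 CPM in WT and to 818, 639 and 1097 CPM in KO. On this scale the log2 difference was 0.03 for Cd8a, -0.16 for Cd8b1, -0.0061 for Cd3d, 0.06 for Cd3e and 0.0010 for Cd3g. It was 0.20 for Cd247, 0.14 for Lck, 0.06 for Zap70 and 0.07 for Lat. The sum of the constant genes had itself a lower mean in KO, so this scaling shifts all 9 genes alike and the signs carry no information on single genes. Lck alone had all KO libraries above all WT libraries on this scale (exact permutation p 0.1, the smallest possible, and 0.6 adjusted over the 9).

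Levels of different genes can be compared only per length. Per kilobase of the principal transcript, the order over all 6 libraries was Cd8b1 (386 ± 118 CPM per kilobase, SD, n = 6), Lck (277 ± 51.3), Cd8a (261 ± 74.1), Lat (257 ± 51.8), Cd3e (224 ± 51.6), Cd3g (216 ± 43.7), Cd3d (133 ± 30.7), Cd247 (123 ± 14.3) and Zap70 (84.8 ± 20.5). On this length the co-receptor beta chain stood highest and Zap70 lowest. Of the 8 pairs of neighbors in this order, Lat over Cd3e, Cd3g over Cd3d and Cd247 over Zap70 held in 6 of 6 libraries (exact sign-flip p 0.0312, the smallest possible, and 0.0833 adjusted over the 8). None of the 8 pairs passed after adjustment in these exact tests. The pairs and their direction were taken from the same 6 libraries, with WT and KO pooled, so these tests lend the order no support. With the length of all exons joined in place of the principal transcript, Lat, Cd3e and Cd3g stood at 115, 80.2 and 67.7 CPM per kilobase and Cd3d, at 119, then stood above them. On that length Cd8a (225) also stood above Lck (207), and Zap70 (63.6) above Cd247 (37.7), which was then the lowest. Cd8b1 was highest on both lengths, and the order of the others depends on the transcript assumed.

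Of the other genes of the pathway, 68 in all, 0 passed edgeR's adjusted test, with 3 lower and 1 higher at an unadjusted p under 0.05 (2.11% and 4.14% of all genes). DESeq2 likewise called 0, with 4 lower and 1 higher (1.12% and 2.44%), and limma voom 0, with 3 lower and 1 higher (2.2% and 3.63%). Fold changes were below 0 for 42 and above 0 for 26, with a median of -0.04. The 3 receptor constant genes were all below 0, with log2 fold changes of -0.33 for Trac and -0.36 for Trbc2. Of 6 surface partners, 4 were below 0, among them Cd2 at -0.18, Cd6 at -0.36 and Cd5, a damper of receptor signals, at -0.33 (unadjusted edgeR p 0.0422, adjusted p 0.786). The 7 other kinases had a median of -0.12, with Csk, which restrains LCK, at 0.0066. Of the 16 adaptors 13 were below 0, with Grap2 at -0.16 and Fyb at -0.0024. The adaptor Sla2, which lowers receptor levels, was at 67.0, 74.2 and 75.3 CPM in WT and at 64.4, 56.1 and 64.5 CPM in KO. All KO libraries were below all WT libraries for Sla2, and its log2 fold change was -0.23 (unadjusted edgeR p 0.0424, adjusted p 0.786).

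The downstream enzymes and factors, 15 in number, centred near 0 with a median of -0.02, Rasgrp1 being at -0.06 and Nfatc3 at -0.04. Stim1, the calcium sensor of the endoplasmic reticulum, was at 120.1, 126 and 136 CPM in WT and at 112, 99.6 and 116 CPM in KO. Its KO libraries were all below its WT libraries, which held for Sla2 and Stim1 alone, 2 of the 68 genes against 5.64% of all genes. In the other direction, all KO libraries were above all WT libraries for 1 of the 68, against 5.83% of all genes. The log2 fold change of Stim1 was -0.22 (unadjusted edgeR p 0.0393, adjusted p 0.786). The 13 phosphatases and brakes had a median of -0.04, with Ptprc, which encodes CD45, at -0.02 and Dgka at -0.18. The 8 early response genes, which are switched on within hours of receptor signaling and in other cell types as well, were all above 0 with a median of 0.35. Of these 8, Nr4a1, Egr1, Egr2, Il2ra and Irf4 (5 genes) were higher in WT1, KO1 and KO2 than in the other 3 libraries. WT1, KO1 and KO2 were those with the higher B cell and monocyte sums, and the part of those cells was not tested. The share of all genes with this split was not counted. Nr4a1 was at 346, 220.0 and 302 CPM in WT and at 314, 613 and 191 CPM in KO, a log2 fold change of 0.37 with overlapping groups and KO2 highest. Egr1 was at 253, 193 and 184 CPM in WT and at 339, 524 and 231 CPM in KO, a log2 fold change of 0.80 (unadjusted edgeR p 0.0193, adjusted p 0.729). Egr1 overlapped only through WT1 and KO3. Without KO3, 21 of the 68 genes were lower (5.68% of all genes) and 8 were higher (8.37% of all genes) at an unadjusted p under 0.05 in edgeR, and 0 passed after adjustment.

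**Figure D5:**
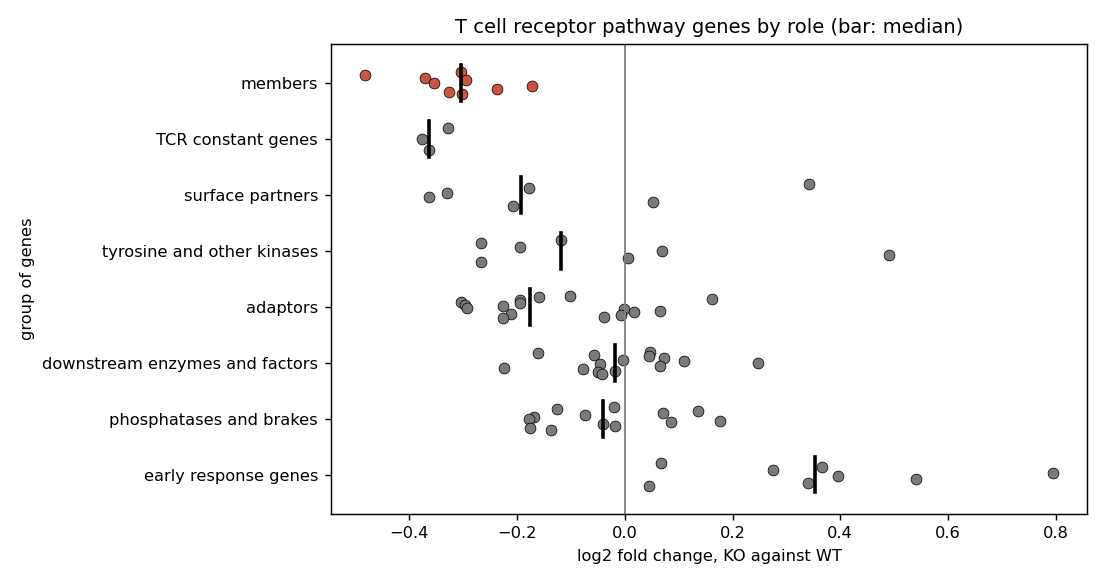
Log2 fold change of KO against WT (horizontal axis) for the 9 genes (top, red) and the 68 other pathway genes by role (vertical axis), 1 point per gene, with the median of each group as a bar. The 9 genes and the receptor constant genes lie below 0 with medians of -0.31 and -0.36, and the early response genes lie above it with a median of 0.35.

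The promoters of the 9 genes were searched on both strands for 4 motifs of factors used in T cells. RefSeq promoters of GRCm38, from 250 bases before to 50 after a start site, were given for 8 of the genes, 11 promoters in all. The ETS core ACAGGAA was in 5 of the 11, belonging to 4 genes, against 8.67% of 32851 promoters. The RUNX core TGTGGT was in 3 (16.8% of all), the GATA core AGATAA in 1 (11.2%) and the E-box CANNTG in 11 (72.3%). One ETS match per promoter is shown on the strand of its gene, with the core or its reverse complement in capitals, since this was the motif most above its background share.
Cd3e, chr9:45009611-45009637: ccctctacacTTCCTGTgtggggttca
Lat, chr7:126369549-126369575: tcaccacagcTTCCTGTcgcacgcggt
Lck, chr4:129573637-129573663: ccctcaggagACAGGAAgtcagggtgg
Zap70, chr1:36761797-36761823: acggctctctTTCCTGTcttcgcatca
Zap70, chr1:36764426-36764452: actgagcaggTTCCTGTggtgggaggg
Cd3e, Lat, Lck and Zap70, the genes with the core, had log2 fold changes from -0.33 to -0.24, inside the range of the 9. The matches are letters in a window, and no binding was measured.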

How the data were processed

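RNA of CD8a+ splenic leukocytes (3 WT and 3 KO samples) was sequenced after SMARTER mRNA library preparation. As far as the values show, the deposited files hold expected counts, that is, estimates of reads per Ensembl gene without normalization (3527 to 4925 genes per library had a fractional value). The submitters' processing notes name the builds GRCm38 and mm10. The aligner, counting program and use of strand are not given in the sources used here. Of 44678 identifiers, 44121 (98.8%) matched GENCODE M21, from which symbols, positions and 3′-UTRs were taken, and miRNAs and promoters were from RefSeq (GRCm38.p6).

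Counts were rounded and analysed with edgeR 4.0.16 in R 4.3.3 (TMM, filterByExpr with a minimum count of 10 and total of 15, quasi-likelihood test, Benjamini-Hochberg over 13024 genes, threshold 0.05). The study's methods state no RNA-seq test. CPM use TMM library sizes (factors 0.989 to 1.01), with library totals of 8143971 to 8876570, and intervals of fold changes are at 95%. Replicates of a genotype differed by more than counting error, with chi-square per degree of freedom from 6.17 to 21.8. Ratios and neighboring levels were compared by exact two-sided permutation tests. Alternatives were DESeq2 1.42.0, limma voom (3.58.1), upper-quartile or no scaling factors, other filters, a replicate block, a covariate of marker genes and each library left out. Scaling to receptor constant genes and the length of joined exons were added after seeing the data. The procedure was tested on simulated data.

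The 9 genes and all lists were chosen with earlier results of these data known. Besides the 9, genes named were the 2 with the highest mean CPM in each pathway group or marker list, pathway genes with an unadjusted p under 0.05, and the 5 nearest to the mean profile and to its mirror image among genes with at least 10 CPM. One gene that this rule names is not reported here. Trbc1 was named for the scaling, and Pou2f1 for its overlap, while Xcr1, Clec9a, Itgae, Flt3, Zbtb46, Egr2, Il2ra and Irf4 were chosen after their values were seen.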

Additional observations from a re-analysis of the deposited data

How the results depend on the processing

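None of the 9 genes or the 68 pathway genes passed the adjusted threshold under any of the 14 other settings, the 6 with a library left out included. Of the 126 fold changes of the 9 genes under them, 123 were below 0. The exceptions were 0.078 for Cd8a, 0.0014 for Cd3e and 0.015 for Lck with the marker covariate. Scaling to the receptor constant genes, added after seeing the data, shifts all 9 genes alike by the change of that sum and put Cd8a at 0.030, Cd3e at 0.057, Cd3g at 0.0010, Cd247 at 0.20, Lck at 0.14, Zap70 at 0.059 and Lat at 0.069. Over all genes 4 passed, against 55 with DESeq2 and 12 in edgeR without a filter on low counts, both over 20913 genes in place of 13024, and 11 with the covariate. With 1 library left out the count ranged from 2 (without WT1 or WT3) to 94 (without KO3). The cause was not tested. The log2 difference with 1 library left out ranged from -0.22 to -0.15 for Cd8b1 to Cd8a, from -0.081 to 0.054 for Cd8a to Cd3e (reversed without WT2, 0.046, and without KO2, 0.054), from 0.027 to 0.27 for Cd247 to Cd3e and from -0.16 to 0.0017 for Zap70 to Lck (reversed without WT3). Any fit without 1 library leaves 2 in that genotype.

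Same-numbered libraries share only a number. Their deviations from the genotype means correlated at -0.010, -0.199 and 0.111, and WT1 correlated best with KO2. With the replicate number as a block, 9 genes passed over all genes, 0 of the 9 genes and 0 of the pathway genes did, and the median of the 9 was -0.33 with 1 of them lower at an unadjusted p under 0.05 in edgeR, against 1.42% of all genes. Depth limits little here, since the lowest count of any of the 9 genes was 1082, and the spread between the 3 libraries of a genotype sets the precision.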

Other observations

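Transcripts that mark other T cell classes were detected as well. The 4 markers of CD4 T cells, led by Zbtb7b and Cd4, summed to 162, 84.5 and 96.3 CPM in WT1, WT2 and WT3 and to 183, 182 and 75.4 CPM in KO1, KO2 and KO3. WT1, KO1 and KO2 were thus the higher libraries, those in which the CD8 and receptor genes were low. The level of Cd4 itself, the co-receptor of helper T cells that some myeloid cells also express, was 67.4, 36.6 and 34.6 CPM in WT and 75.5, 71.8 and 28.7 CPM in KO, in the same split. The markers of gamma-delta T cells, led by Trdc and Tcrg-C2, summed to 31.7, 24.5 and 18.99 CPM in WT and to 21.5, 24.3 and 22.8 CPM in KO, with overlapping genotypes. Of the 5 gamma-delta markers 4 were tested, and none of the tested markers of either list passed edgeR's adjusted test.

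The remaining marker lists overlapped between genotypes as well, and none of their genes passed edgeR's adjusted test. Plasmacytoid DC markers (led by Ly6d and Bst2) summed to 304 to 349 CPM in WT and 279 to 390.2 CPM in KO. Ly6d had the split of the B cell markers, at 136, 84.4 and 90.1 CPM in WT and 142, 172 and 76.8 CPM in KO. Ccr9, which is also in that list, was among the genes nearest to the mean profile of the 9 genes. NK cell markers (led by Klrb1c and Klre1) summed to 21.5 to 51.1 CPM in WT and 26.2 to 61.0 CPM in KO. Neutrophil markers (led by S100a9 and S100a8) were at 836 CPM in WT1, 863 CPM in KO1 and 1037 CPM in KO2, and between 203 and 337 CPM in the other 3 libraries. Erythroid markers (led by Hbb-bs and Hba-a1) ranged from 127 to 547 CPM in WT and from 268 to 1671 CPM in KO, highest in KO2.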
